A study of Saccharomyces cerevisiae with 6 samples.

Results

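The F1Fo ATP synthase of the inner mitochondrial membrane is assembled from proteins of nuclear and mitochondrial origin, and the transcripts of 10 of its nuclear subunit genes were followed across 3 strains of Saccharomyces cerevisiae. The genes were ATP1, ATP2, ATP3, ATP4, ATP5, ATP7, ATP14, ATP16, ATP17 and ATP20. They are listed by name, and all 10 were found by locus tag among the 6032 genes listed. RNA-seq had been carried out on an ASK10 M475R strain (2 libraries, M475R), an ask10Δ strain (1 library, replicate 2, deletion) and an ASK10 wild-type strain (2 libraries, WT). Every strain was grown in Sc-ura medium with 20 g/l glucose. The ASK10 protein acts on Fps1, the channel through which yeast cells lose glycerol. The labels give neither how the allele was introduced nor whether replicates came from separate cultures.

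In this enzyme, protons that flow back into the matrix through the membrane-embedded Fo part turn a rotor. The rotor's axle, the central stalk, drives ATP formation in the catalytic head of the soluble F1 part, while a peripheral stalk keeps the head from turning along. The protons are pumped out by the cytochrome bc1 complex and cytochrome c oxidase, since yeast has no proton-pumping NADH dehydrogenase. While yeast ferments glucose, expression of many respiratory genes is held low, and the HAP complex is a known activator of them once glucose runs out.

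Total expected counts were 4155203 and 71228 in M475R replicates 1 and 2, 117680 in the deletion library, and 102612 and 51576 in WT replicates 1 and 2. Counts within the M475R pair and within the WT pair agreed to within sampling noise (chi-square per degree of freedom 1.03 and 1.01, p = 0.168 and 0.436). Each pair therefore counts as 1 sample, no SD is given, and the p-values set libraries, not strains, against each other. ASK10 itself had 567 and 4 counts in M475R, 0 in the deletion library, and 5 and 7 in WT. In these bulk samples, fewer cells with a transcript and less transcript per cell cannot be told apart. In what follows, FPKM is the authors' level per transcript length and depth. A ratio is one of counts over scaled library sizes with its exact 95% interval, and a gene is called where the edgeR quasi-likelihood test, adjusted over 2909 genes, gave p under 0.05. Intervals cover counting error only.

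Transcripts of ATP synthase subunits were less abundant in M475R than in WT. By the edgeR test 7 of the 10 genes fell, all of them among the 7 that reached the limit of the filter on low counts in an M475R library, namely ATP1, ATP2, ATP3, ATP4, ATP5, ATP7 and ATP14, and 0 rose. Over all tested genes 10.1% fell and 8.46% rose. The ratios of the 10 genes ranged from 0.300 to 0.611 with a median of 0.458. Their median log2 fold change was -1.12, against 0.01 over all tested genes. These values include ATP16, ATP17 and ATP20, which passed the filter only through the deletion or WT libraries. Among the other 7 genes the ratios ran from 0.437 (ATP7) to 0.560 (ATP4). Together the 10 genes took 0.221% (95% Wilson interval 0.217 to 0.226) and 0.222% (0.190 to 0.259) of the counts in M475R, 0.472% (0.434 to 0.512) in the deletion library, and 0.435% (0.396 to 0.477) and 0.498% (0.441 to 0.563) in WT. In each of the 10 genes both M475R libraries lay below both WT libraries, a separation that 26.1% of all tested genes also had.

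**Figure D1:**
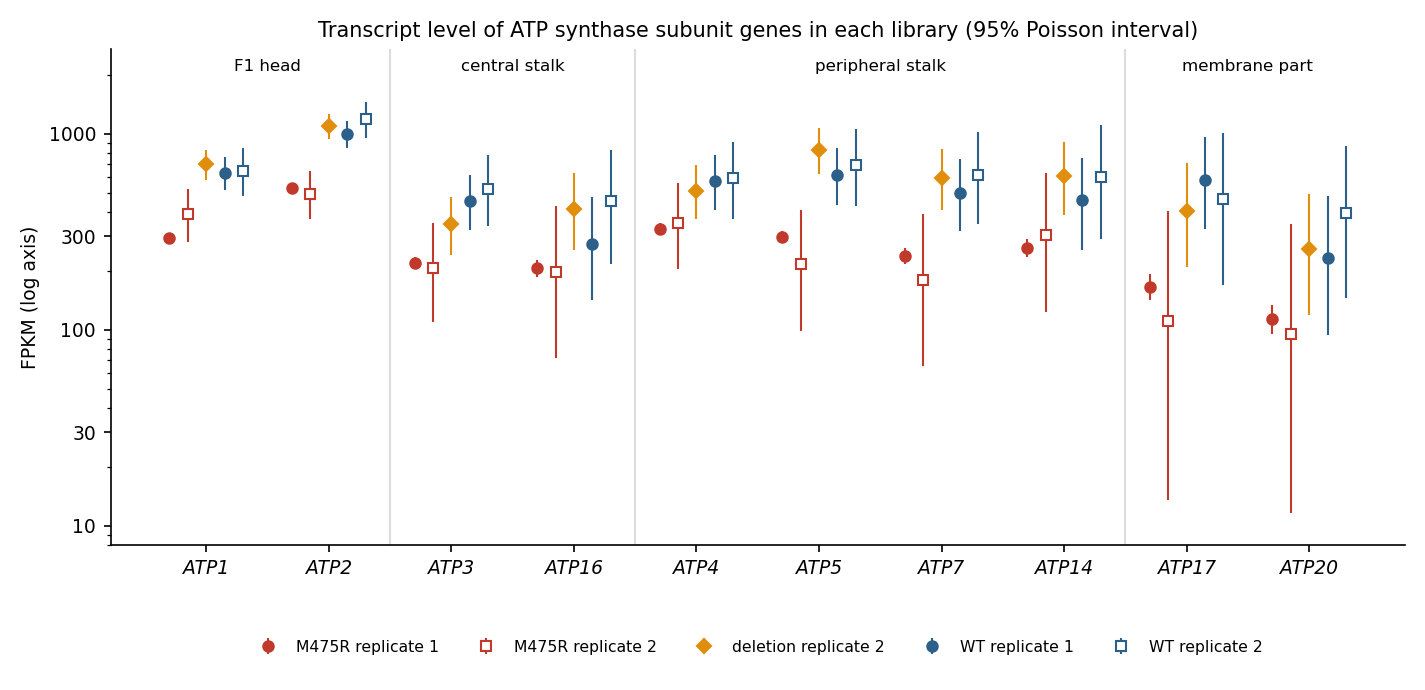
Level of each subunit gene (FPKM, log axis) in the 2 M475R libraries, the deletion library and the 2 WT libraries, with 95% exact Poisson intervals that cover counting error only. In every gene both M475R points lie below the deletion and WT points. In scaled counts, 26.1% of all tested genes had both M475R libraries below both WT libraries, and 38.8% had both below the deletion library. The intervals of M475R replicate 1 are the narrowest since it holds 4155203 counts.

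ATP1 (YBL099W) and ATP2 (YJR121W) encode the alpha and beta subunits that alternate in the catalytic head. ATP1 stood at 295 and 388 FPKM in M475R, 698 in the deletion library, and 631 and 645 in WT. ATP2, whose product carries the catalytic sites, stood at 529.8 and 490.0 FPKM in M475R, 1094 in the deletion library, and 995 and 1184 in WT. Both genes were lower in both M475R libraries than in both WT libraries, as were 26.1% of all tested genes. The ratio of M475R to WT was 0.461 (0.391 to 0.546) for ATP1, with an edgeR adjusted p of 2.30e-12. For ATP2 it was 0.493 (0.433 to 0.564), with an edgeR adjusted p of 1.15e-14. Without M475R replicate 1, the deepest library, ATP2 kept its call while ATP1 did not (log2 fold change -0.71, edgeR adjusted p = 0.0710).

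The central stalk is represented by ATP3 (YBR039W), the gamma subunit that forms the rotating axle, and ATP16 (YDL004W), the delta subunit at its foot. ATP3 stood at 219 and 206 FPKM in M475R, 345 in the deletion library, and 452 and 526 in WT. Its ratio of M475R to WT was 0.452 (0.351 to 0.592; edgeR adjusted p = 1.05e-06). ATP16 stood at 206 and 196 FPKM in M475R, 415 in the deletion library, and 273 and 452 in WT. The M475R values of ATP16 lay below those of WT, as in 26.1% of all tested genes, but 273 FPKM in WT replicate 1 rests on 12 counts. Its ratio of 0.611 (0.398 to 0.987) was the nearest to 1 of the 10 genes and was not called (edgeR adjusted p = 0.156).

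Peripheral stalk genes fell throughout. The stalk is built from ATP4 (YPL078C, subunit b, which anchors it in the membrane), ATP5 (YDR298C, the OSCP subunit that joins it to the head), ATP7 (YKL016C, subunit d) and ATP14 (YLR295C, subunit h). ATP4 stood at 328 and 349 FPKM in M475R, 509 in the deletion library, and 572 and 596 in WT, a ratio of M475R to WT of 0.560 (0.432 to 0.738; edgeR adjusted p = 0.000669). ATP5 stood at 298 and 215 FPKM in M475R, 825 in the deletion library, and 616 and 695 in WT, a ratio of 0.455 (0.348 to 0.606; edgeR adjusted p = 6.08e-06). In these genes too the M475R libraries were the lowest 2 of the 5. Both lay below both WT libraries in 26.1% of all tested genes, and below the deletion library in 38.8%.

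ATP7 stood at 239 and 179 FPKM in M475R, 593 in the deletion library, and 497.5 and 617 in WT, and its ratio of M475R to WT was 0.437 (0.315 to 0.622; edgeR adjusted p = 0.000145). ATP14 stood at 262 and 306 FPKM in M475R, 608 in the deletion library, and 458 and 605 in WT, and its ratio was 0.513 (0.342 to 0.804; edgeR adjusted p = 0.0289). Calls of 3 stalk genes depended on single libraries: without M475R replicate 1 the edgeR adjusted p was 0.290 for ATP4, 0.0589 for ATP7 and 0.544 for ATP14. Without WT replicate 1 it was 0.134 for ATP4 and 0.325 for ATP14, and without WT replicate 2 it was 0.286 for ATP14. DESeq2 did not call ATP4 (adjusted p = 0.170) or ATP7 (0.0721). With the biological CV fixed at 20% ATP2, ATP5 and ATP17 alone of the 10 genes were called lower, where 36 of 2909 tested genes were lower. ATP17 passed the filter on low counts only through the deletion or WT libraries, so its call lends no support to a decrease.

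In the membrane part, ATP17 (YDR377W) encodes subunit f, and ATP20 (YPR020W) encodes subunit g, which helps ATP synthase monomers to associate as dimers. ATP17 stood at 165 and 111 FPKM in M475R, 404 in the deletion library, and 584 and 463 in WT. ATP20 stood at 114 and 95.5 FPKM in M475R, 259.6 in the deletion library, and 233 and 396 in WT. Both were low in M475R without overlap, which against WT held for 26.1% of all tested genes. Yet each was read only 2 times in M475R replicate 2, under the floor of 3 counts taken as detection. ATP17 had the lowest ratio of M475R to WT of the 10 genes, 0.300 (0.190 to 0.496), and ATP20 had 0.390 (0.221 to 0.750).

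Neither gene of the membrane part was called by edgeR (adjusted p = 0.0620 for ATP17 and 0.370 for ATP20). With the libraries of each strain summed and compared by an exact binomial test, both were lower (adjusted p = 8.02e-05 and 0.0187), where 11.5% of all tested genes were lower. ATP16, ATP17 and ATP20 passed the filter on low counts only through the deletion or WT libraries, where they were higher, so their calls lend no support to a decrease over the 10 genes. The other 7 genes reached the limit of 97.5 CPM (counts scaled to library size) in at least 1 M475R library as well, and the exact test found all 7 lower. ATP16 was not called by the exact test either (adjusted p = 0.138).

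**Figure D2:**
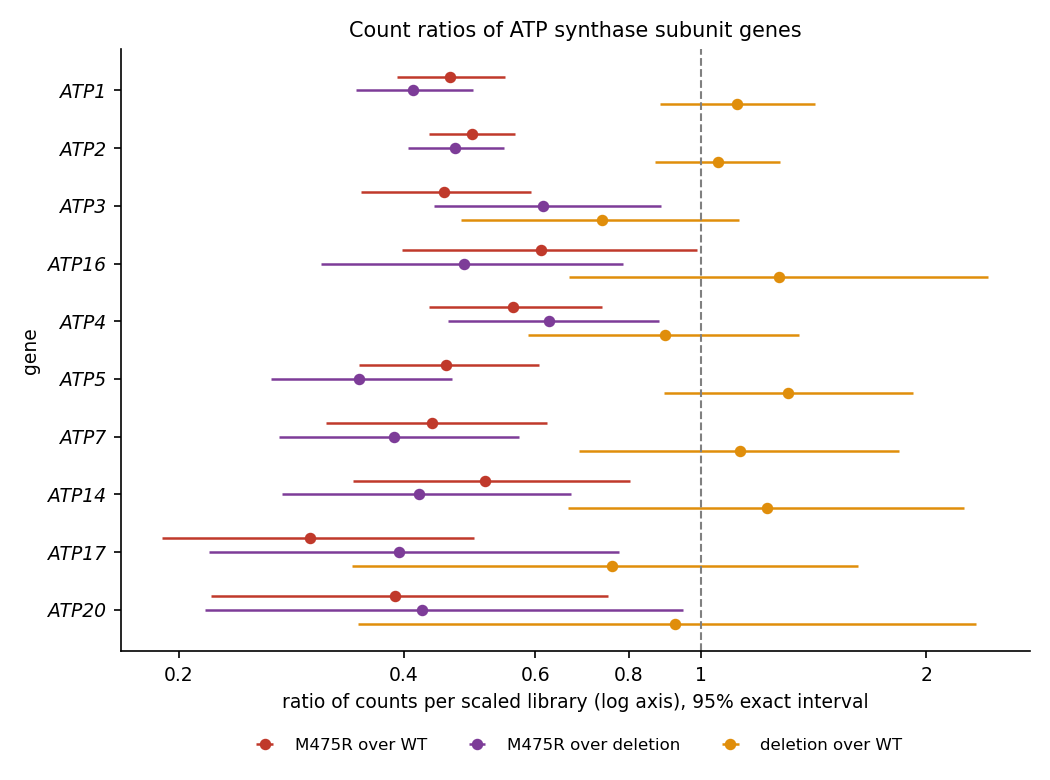
Ratio of counts over scaled library sizes (log axis) for each gene, with exact 95% intervals that cover counting error only, for M475R over WT, M475R over deletion, and deletion over WT. All 10 M475R intervals lie below 1 in both comparisons, while all 10 intervals of deletion over WT hold 1. No share of all tested genes with such intervals is given. ATP16, ATP17 and ATP20 passed the filter on low counts only through the deletion or WT libraries.

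The size of the decrease was compared between single genes, and the structural parts of the enzyme were not compared as such. Among the 45 pairs of the 10 genes, 0 had intervals of the M475R to WT ratio that lay apart, which does not show that the genes fell equally, since the interval of ATP17 spans 0.190 to 0.496 and that of ATP2 0.433 to 0.564. Each library of M475R showed the decrease against each library of WT. M475R replicate 1 gave a median ratio over the 10 genes of 0.479 to WT replicate 1 and 0.428 to WT replicate 2. M475R replicate 2, sequenced far less deeply, gave 0.461 and 0.394. All 10 ratios were below 1 in each of these 4 pairs of libraries. The pairs share libraries, and this restates the separation that 26.1% of all tested genes also had. The 10 genes include ATP16, ATP17 and ATP20, which passed the filter only through the deletion or WT libraries.

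Set against the single deletion library, the M475R libraries were lower as well. Of the 7 genes that reached the filter's limit in an M475R library, edgeR called 5 lower (ATP1, ATP2, ATP5, ATP7 and ATP14) and 0 higher, where 6.19% of all tested genes fell and 4.09% rose. ATP16, called lower too, passed the filter only through the deletion and WT libraries. This comparison uses the same M475R libraries as the one with WT, so the pair of comparisons is not independent. Both M475R libraries lay below the deletion library in 10 of 10 genes, as they did in 38.8% of all tested genes. The ratios of M475R to deletion ranged from 0.348 (ATP5) to 0.626 (ATP4). The median log2 fold change of the 10 genes was -1.26, against 0.01 over all tested genes. This median and the 10 of 10 include ATP16, ATP17 and ATP20, which passed the filter only through the deletion or WT libraries.

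ATP5, the OSCP gene, had the lowest ratio of M475R to deletion, 0.348 (0.266 to 0.464; edgeR adjusted p = 1.99e-09). For the head genes the ratio was 0.412 (0.345 to 0.496; edgeR adjusted p = 3.91e-13) in ATP1 and 0.469 (0.405 to 0.545) in ATP2. For ATP16 it was 0.481 (0.310 to 0.786; edgeR adjusted p = 0.0428), a call that rests on a gene below the filter's limit in both M475R libraries. The gamma subunit gene ATP3 and the subunit b gene ATP4 had the ratios nearest to 1, 0.614 (0.439 to 0.882) and 0.626 (0.458 to 0.878), and were not called (edgeR adjusted p = 0.0641 and 0.0547). ATP17 and ATP20 were not called either, at 0.394 (0.220 to 0.777) and 0.423 (0.217 to 0.944). The exact binomial test of summed libraries found 6 of the 7 genes at the limit in M475R lower, all but ATP3, where 8.22% of all tested genes were lower. With the biological CV fixed at 20% ATP5 was the 1 gene called. The call of ATP16 was lost without any 1 of the M475R or WT libraries (edgeR adjusted p = 0.0620 to 0.423), and that of ATP14 without M475R replicate 1 (0.449) or WT replicate 1 (0.0532).

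Between the deletion library and the WT libraries no ATP synthase gene was called. The edgeR test called 0 of 10, with 0 at an unadjusted p under 0.05, and DESeq2 and the exact binomial test also called 0, where edgeR called 0.688% of all tested genes in either direction. Ratios of deletion to WT ranged from 0.737 to 1.31. The largest decrease was in ATP3, 0.737 (0.477 to 1.12; edgeR adjusted p = 0.739), and the largest increase in ATP5, 1.31 (0.892 to 1.92). The best measured genes limit the difference most closely: the interval was 0.866 to 1.28 for ATP2 and 0.879 to 1.42 for ATP1. For ATP20, with 9 counts in the deletion library and 7 and 6 in WT, it ran from 0.348 to 2.33. At this depth neither a 2-fold rise nor a 2-fold fall of ATP20 can be excluded.

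**Figure D3:**
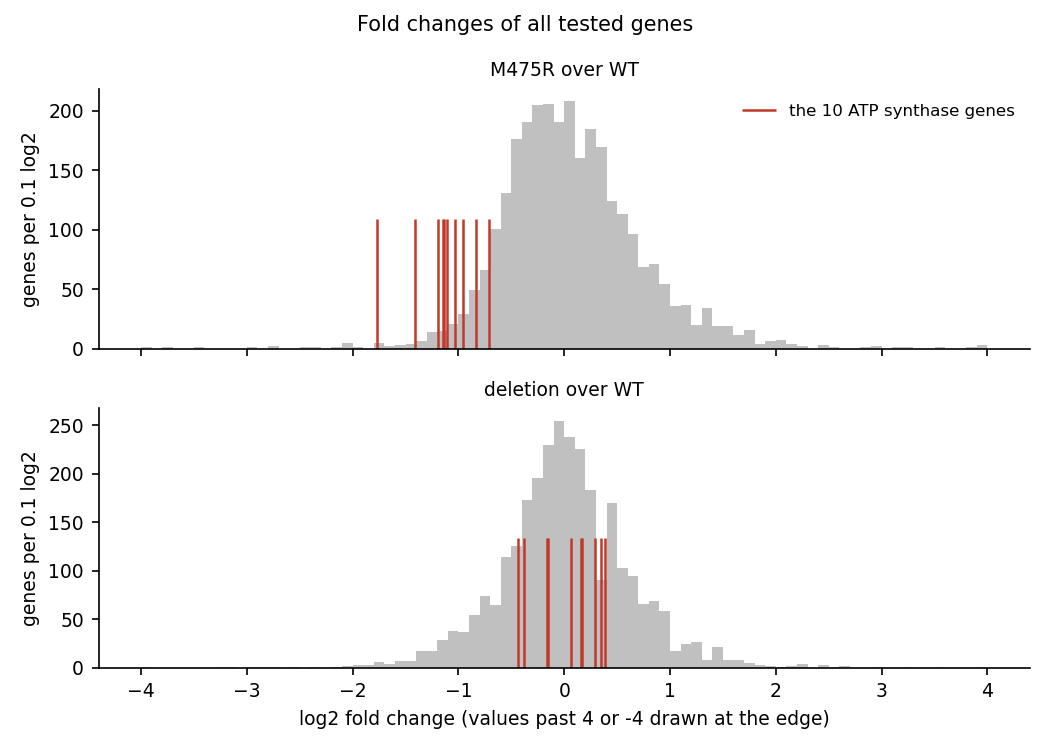
Number of tested genes per 0.1 of log2 fold change for M475R over WT (top) and deletion over WT (bottom), with red lines at the 10 ATP synthase genes. In M475R over WT the lines run from -1.77 (ATP17) to -0.71 (ATP16), and in deletion over WT from -0.44 to 0.39. ATP16, ATP17 and ATP20 passed the filter on low counts only through the deletion or WT libraries.

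Per transcript length, ATP2 was the highest of the 10 genes in each strain. Its pooled level was 529 FPKM (511 to 547) in M475R, 1094 (945 to 1260.4) in the deletion library, and 1058 (930 to 1200.2) in WT. In M475R it was followed by ATP4 at 329 FPKM, ATP1 at 297, ATP5 at 296, ATP14 at 263, ATP7 at 237.5, ATP3 at 218, ATP16 at 206, ATP17 at 164 and ATP20 at 113. Of these neighbours, ATP2 and ATP4 lay apart beyond their intervals, as did ATP17 and ATP20, and the other 7 neighbouring pairs overlapped. The pooled M475R levels mostly reflect replicate 1, with 9197 counts of the 10 genes against 158 in replicate 2. In replicate 2 the order differed: ATP1 at 388 FPKM stood above ATP4 at 349, and ATP5 at 215 below ATP14 at 306.

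In the deletion library the order after ATP2 was ATP5 at 825 FPKM, ATP1 at 698, ATP14 at 608, ATP7 at 593, ATP4 at 509, ATP16 at 415, ATP17 at 404, ATP3 at 345 and ATP20 at 259.6, and no neighbours lay apart. In WT it was ATP5 at 643 FPKM, ATP1 at 636, ATP4 at 580.1, ATP17 at 543, ATP7 at 538, ATP14 at 507, ATP3 at 477, ATP16 at 333 and ATP20 at 288, and only ATP2 and ATP5 lay apart. ATP20 was the lowest in every strain. The level of the alpha gene relative to the beta gene was 0.561 (0.531 to 0.593) in M475R, 0.638 (0.507 to 0.801) in the deletion library and 0.601 (0.488 to 0.737) in WT, with overlapping intervals. The M475R value mostly reflects replicate 1, where the 2 genes stood at 295 and 529.8 FPKM. In M475R replicate 2 they stood at 388 and 490.0.

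The remaining subunits could hardly be measured. ATP6, ATP8 and OLI1, which mitochondrial DNA encodes, were not analysed here. ATP15 (epsilon of the central stalk) had 85 and 1 counts in M475R, 3 in the deletion library, and 2 and 4 in WT. ATP18 (subunit i/j) had 79 and 1 counts in M475R, 8 in the deletion library, and 2 and 2 in WT. ATP19 (subunit k) had 135 and 3 counts in M475R, 8 in the deletion library, and 2 and 2 in WT. These 3 short genes did not pass the filter, and the intervals of their M475R to WT ratios, 0.227 to 1.44, 0.270 to 2.70 and 0.474 to 4.62, hold both 1 and the median ratio of 0.458, except that of ATP19, which holds 1 only. Against the deletion library the ratio was 0.774 (0.256 to 3.83) for ATP15, 0.270 (0.131 to 0.647) for ATP18 and 0.466 (0.230 to 1.10) for ATP19, so that the interval of ATP18 lay below 1. TIM11 (subunit e, the partner of subunit g in dimers) was tested and not called, at 152 and 6 counts in M475R, 10 in the deletion library, and 3 and 6 in WT (ratio of M475R to WT 0.631, 0.324 to 1.41; edgeR adjusted p = 0.781). Its ratio of M475R to deletion was 0.427 (0.226 to 0.907; edgeR adjusted p = 0.637).

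Among the factors that build the enzyme, 0 of 4 tested genes fell in M475R against WT and 1 rose. Over all tested genes 10.1% fell and 8.46% rose, so 0 of 4 does not set these factors apart. Of 14 assembly and mitochondrial mRNA factors, 4 had enough counts, and ATP11, a chaperone that keeps the beta subunit from aggregating before it joins the head, was higher in M475R than in WT (ratio 3.21, 1.83 to 6.23; edgeR adjusted p = 1.69e-05). It was also higher than in the deletion library (2.41, 1.38 to 4.68; edgeR adjusted p = 0.00649), and the calls held without each library left out in turn. DESeq2 gave none of the 4 genes an adjusted p in these comparisons. The ratios of ATP11 rest on 1072 counts in M475R, 12 in the deletion library and 12 in WT. The chaperone of the alpha subunit, ATP12, had a ratio of M475R to WT of 1.38 (0.828 to 2.48) and was not called. ATP25 and AEP2, which act on the mitochondrial OLI1 message, were not called in any comparison. The inhibitor and stabilising factor genes INH1, STF1 and STF2 did not pass the filter. INH1, whose product blocks ATP hydrolysis by the enzyme, had 50 and 1 counts in M475R, 9 in the deletion library, and 3 and 2 in WT. Its ratio was 0.153 (0.0746 to 0.354) for M475R over deletion and 0.367 (0.147 to 1.18) for M475R over WT. STF1 had 129 and 4 counts in M475R, 2 in the deletion library, and 3 and 0 in WT. STF2 had 64 and 2 in M475R, 1 in the deletion library, and 1 and 0 in WT. Unlike those of INH1, their ratios lay above 1, with wide intervals that hold 1. For M475R over WT the ratio was 1.59 (0.534 to 7.83) in STF1 and 2.37 (0.411 to 95.1) in STF2. For M475R over deletion it was 1.80 (0.487 to 14.98) in STF1 and 1.78 (0.309 to 71.4) in STF2.

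The 2 tested genes for carriers that supply the enzyme fell as well. Over all tested genes 10.1% fell against WT and 6.19% against the deletion library. PET9, the main ADP/ATP carrier, and MIR1, the phosphate carrier, were the 2 tested genes of 5, and both fell in M475R, with log2 fold changes of -0.71 and -0.96 against WT and -0.83 and -1.01 against the deletion library (edgeR adjusted p = 4.00e-05, 5.84e-07, 2.10e-05 and 7.62e-06). Without M475R replicate 1, PET9 was called in neither comparison (-0.32 and -0.44; edgeR adjusted p = 0.525 and 0.458), while MIR1 was called in both; DESeq2 likewise called MIR1 alone. Neither was called between deletion and WT. The carrier genes AAC1, AAC3 and PIC2 did not pass the filter. Their ratios of M475R to WT were 0.404 (0.147 to 1.55), 1.33 (0.224 to 53.9) and 3.49 (0.952 to 29.0).

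The respiratory complexes that pump the protons also had lower transcripts by edgeR, where 10.1% of all tested genes fell against WT and 6.19% against the deletion library. Of the cytochrome bc1 complex and cytochrome c, 7 of 9 tested genes fell in M475R against WT and 0 rose. Against the deletion library 6 of 9 fell. The largest decreases against WT were those of QCR7, QCR8 and QCR2 (log2 fold changes of -1.16, -1.04 and -0.97) and COR1 (-0.88). QCR8 had 329 counts in the M475R libraries together. It passed the filter on low counts only through the deletion or WT libraries, so its calls lend no support to a decrease. CYC1, the main cytochrome c gene, had a ratio of M475R to WT of 1.11 (0.863 to 1.44) and was not called. Of cytochrome c oxidase, 4 of 5 tested nuclear subunit genes fell against WT, COX4 (-1.32), COX5A (-1.26), COX6 (-1.18) and COX13 (-1.07). Against the deletion library 3 of 5 fell. COX4, with 326 counts in the M475R libraries together, likewise passed the filter only through the deletion or WT libraries. Its calls lend no support to a decrease either. Of succinate dehydrogenase, which feeds electrons but pumps no protons, SDH1 alone of 3 tested genes fell against WT (-0.92), and SDH1 and SDH2 fell against the deletion library (-1.04 and -2.15). SDH2 was the 1 gene of these groups called between deletion and WT, being higher in the deletion library (log2 fold change 1.67, edgeR adjusted p = 0.000348), which no longer held once WT replicate 1 was left out (1.29; 0.441) or by DESeq2.

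Fewer of these genes were called without the deepest library. Without M475R replicate 1, calls against WT numbered 1 of 8 tested genes for bc1 and cytochrome c, 1 of 5 for cytochrome c oxidase and 0 of 3 for succinate dehydrogenase, and against the deletion library 2 of 8, 1 of 5 and 1 of 3. The genes called lower against WT with all libraries kept negative log2 fold changes without M475R replicate 1. These were -2.41 to -0.39 for the 7 of bc1 and cytochrome c, -2.13 to -0.95 for the 4 of cytochrome c oxidase and -0.29 for SDH1. The lowest, -2.41 for QCR8 and -2.13 for COX4, came from genes below the filter's limit in both M475R libraries. Without M475R replicate 1, QCR8 and COX4 alone of bc1, cytochrome c and cytochrome c oxidase stayed called against WT. Both were also among the calls against the deletion library, and COX4 was the oxidase gene called without WT replicate 1. These calls lend no support to a decrease. Without WT replicate 1, calls against WT numbered 2 of 9, 1 of 4 and 0 of 3. DESeq2 called 0 of these genes against WT, among the 7, 2 and 2 to which it gave an adjusted p, and against the deletion library it called 1 of 4 for bc1 and cytochrome c (QCR2) and gave the genes of the other complexes no adjusted p.

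The internal and external NADH dehydrogenases NDI1 and NDE1 were tested and not called in any comparison. The same held for HAP1 and HAP4, the 2 tested HAP factor genes. HAP1, which does not encode a subunit of the HAP complex, had a ratio of M475R to WT of 0.782 (0.535 to 1.19). For HAP4, the regulatory subunit of the complex, the ratio was 1.14 (0.730 to 1.88).

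Other ATP-linked proton pumps were set beside the ATP synthase. The vacuolar ATPase is a related rotary enzyme that runs in the reverse sense, using ATP to acidify the vacuole. Of its 14 tested genes edgeR called 0 in each of the 3 comparisons, as did the exact binomial test. Over all tested genes edgeR called 10.1% lower and 8.46% higher for M475R against WT. Against the deletion library these shares were 6.19% and 4.09%. For deletion against WT edgeR called 0.688% in either direction, so 0 of 14 is near the share there. DESeq2 called 0 of the 13, 9 and 14 genes to which it gave an adjusted p for M475R against WT, M475R against deletion and deletion against WT, but it also called 0 of the respiratory complex genes against WT. At an unadjusted p under 0.05 edgeR gave 2 for M475R against WT, 0 for M475R against deletion and 1 for deletion against WT. The genes had log2 fold changes of M475R over WT from -0.42 to 0.33, with a median of 0.15. VMA1, its catalytic subunit, had a ratio of M475R to WT of 1.24 (1.03 to 1.50; edgeR adjusted p = 0.111). Leaving out the deletion library, WT replicate 1 or WT replicate 2 brought 1, 1 and 2 of the 14 past the threshold, in both directions. PMA1, the single-subunit proton pump of the plasma membrane, was lower in M475R than in WT by a small margin (ratio 0.897, 0.850 to 0.946; edgeR adjusted p = 0.00914), and this call was lost when any 1 of the 5 libraries was left out (0.0754 to 0.316) and was not made by DESeq2.

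**Figure D4:**
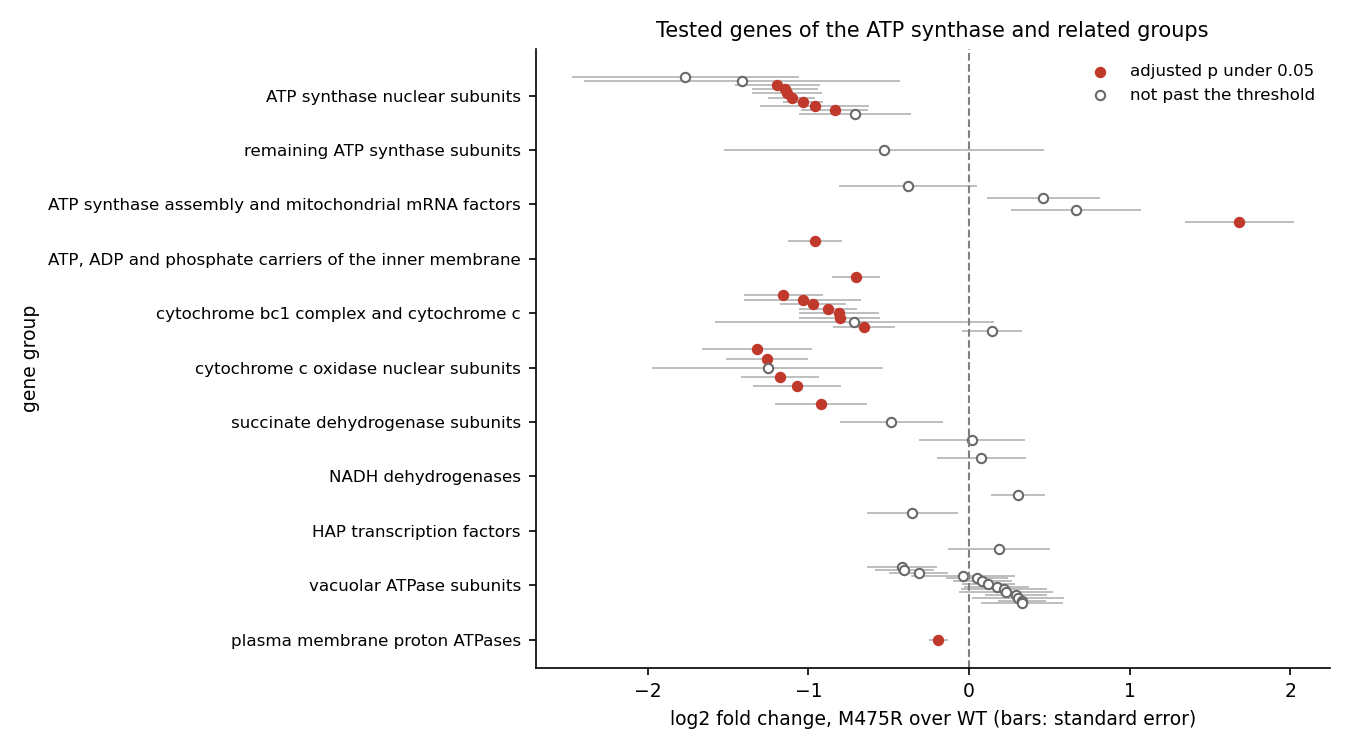
Log2 fold change of M475R over WT for each tested gene of the ATP synthase and of related groups, with bars of 1 standard error from edgeR. Filled points passed an adjusted p of 0.05: 7 of 10 ATP synthase genes, 7 of 9 for bc1 and cytochrome c and 4 of 5 for cytochrome c oxidase on the lower side, ATP11 on the higher side, and 0 of 14 for the vacuolar ATPase. Of the filled points, QCR8 and COX4 passed the filter on low counts only through the deletion or WT libraries.

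Among the authors' deposited tables, a filtered list of 85 genes that differ between M475R replicate 1 and the deletion library holds 4 of the 10 genes, ATP5, ATP7, ATP1 and ATP2, with the authors' log2 ratios of M475R to deletion of -1.47, -1.32, -1.24 and -1.05. The authors' deposited table for M475R replicate 2 and the deletion library lists 31 genes and holds ATP2 alone (-1.16). The one for M475R replicate 2 and WT replicate 1 lists 34 genes and holds ATP2 alone (-1.02). The authors' deposited table of strain means for M475R and WT lists 88 genes and holds ATP17 alone, with a log2 ratio of -1.92 and a probability of 0.818. The authors' deposited tables of the deletion library against WT replicates 1 and 2 list 4 and 2 genes and hold 0 of the 10.

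Genes whose pattern was most like that of the 10 were sought by the distance to their median over the log2 fold changes of M475R over WT and deletion over WT, among 1510 tested genes with at least 20 WT counts. The nearest 5 were SER1 (serine synthesis), HIS1 (histidine synthesis), QCR7 (bc1 complex), BAT1 (a mitochondrial branched-chain aminotransferase) and LEU9 (leucine synthesis). Their distances were 0.03 to 0.14, while those of the members were 0.05 to 0.81, and 355 other genes lay within that range. The log2 fold changes of SER1 were -1.09 for M475R over WT and 0.11 for deletion over WT, and those of BAT1 were -1.25 and 0.15.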

How the data were processed

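Per the labels' protocols, libraries were made from fragmented mRNA by cDNA synthesis and PCR. The submitters' processing notes name BWA and Bowtie; genome build, annotation, counting tool and use of strand are not given in the sources used here. Of 6 samples, 5 libraries were analysed, and deletion replicate 1 was not analysed here. Per the file headers, the deposited tables give an expected count and an FPKM per gene and library, and a log2 ratio and an FDR (a p-value adjusted by the authors) per pair of libraries. The list of strain means gives a probability, deposited by the authors as a fraction. Expected counts were rounded to whole numbers (those of the 10 genes were whole as deposited). FPKM was written as 0.001 for a gene at 0. The filtered lists hold 20 further per-sample columns that were not used.

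Of the gene identifiers, 5515 matched the RefSeq table of assembly R64, used for names and neighbours; 517 did not. In that annotation 0 of the 10 genes overlap another gene. The authors' build is not named, so no coordinates are given and no sequence was read; the planned count of promoter motifs was not made.

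Counts were tested with edgeR 4.0.16 in R 4.3.3 (quasi-likelihood, TMM, filterByExpr, 1 fit of 5 libraries), with Benjamini-Hochberg adjustment over 2909 genes and a threshold of 0.05. The filter needed 1 library at its limit, so a low gene could pass on the strength of a single strain. The spread was shared across genes (biological CV 3.18%, 2 residual degrees of freedom), and the lone deletion library was taken to vary as the rest do. The script was tested on simulated data. M475R ratios mostly reflect replicate 1, 35.3 to 80.6 times as deep as the others, where 3 counts equal 0.784 CPM, against 28.5 to 63.8 elsewhere. PCR copies are not independent molecules.

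Members, gene groups and tests were chosen with earlier results of these data known. Named genes were the 10 members, the remaining subunits, up to 4 called genes of each related group per comparison, the 5 nearest in pattern and ASK10; uncalled genes named from the groups and VMA1 were chosen after their values were seen.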

Additional observations from a re-analysis of the deposited data

How the results depend on the processing

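All 10 genes kept a lower level in M475R under every alternative that gave a value. The 118 log2 fold changes against WT (-2.22 to -0.43) and 108 against the deletion library (-1.95 to -0.56) were all negative. These alternatives reuse the same libraries, so the shared sign is not independent support for a decrease. They also include ATP16, ATP17 and ATP20, which passed the filter only through the deletion or WT libraries. No share of all tested genes that kept their sign is given here. For deletion against WT, 3 of 113 uncalled values changed sign, all without WT replicate 1. The number of genes called moved more. The calls against WT with a biological CV fixed at 20% include that of ATP17, which lends no support to a decrease. Against WT (7 called), a minimum of 10 counts in every library gave 4 (of the 4 genes it left), DESeq2 1.42.0 gave 4 (4 had no adjusted p) and a biological CV fixed at 20% gave 3, and leaving out libraries gave 3 to 8. Against the deletion library (6 called), these gave 2, 3 (5 had no adjusted p) and 1, and 4 to 5. Over all genes, the 540 calls of M475R against WT became 302, 126 and 84, and 176 to 518 with a library left out. The 299 of M475R against deletion became 180, 69 and 50, and 105 to 313, and the 20 of deletion against WT became 4 by DESeq2 and 3 with the fixed CV, and 9 to 17. Counts under RLE factors, total counts and no filter stayed within 1.5 times the main ones. All 30 ratios of mean FPKM lay inside the count intervals. The causes were not tested.

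M475R and WT share replicate numbers that no label ties to a shared batch, and the replicate differences of the strains correlated at -0.03 over 2909 genes, so the numbers were not taken as pairs. With a replicate block, 7, 4 and 0 of the 10 genes were called for M475R against WT, M475R against deletion and deletion against WT, and 486, 156 and 11 of all genes. Against WT the block ended the call of ATP14 (adjusted p = 0.109) and added one of ATP17 (0.0362). Against the deletion library it ended those of ATP14 (0.366) and ATP16 (0.520). Depth limits ATP17 and ATP20, with 2 counts each in M475R replicate 2.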
